A study of Mus musculus with 69 samples.

Results

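The 8 genes described here encode proteins that bind AU-rich or stem-loop elements in messenger RNA and set how long the RNA lasts: Zfp36, Zfp36l1, Zfp36l2, Elavl1, Khsrp, Hnrnpd, Rc3h1 and Zc3h12a. They were found by symbol among the 24411 genes of the count table, and all 8 are among the 21175 genes that passed the filter on low counts. Zfp36 was chosen by its measured rise in counts after volume depletion, so its levels in volume-depleted kidneys are given as a description, without a test, and counts of members in those comparisons are of the 7 other genes.

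The libraries hold mouse kidney RNA. Every mouse carried Uprt, an enzyme that puts the uracil analog 4-thiouracil (4-TU) into new RNA, in the Rosa26 locus behind a stop cassette that Cre removes (genotypes Hoxb7Cre;UPRTf/+ and Atp6b1v1Cre;UPRTf/+, the latter the Atp6v1b1Cre driver), and received 430 mg/kg of 4-TU 4 hours before harvest. Hoxb7Cre opens the cassette along the collecting duct and Atp6v1b1Cre in the intercalated and double-positive cells, and in some scattered interstitial cells. Labelled RNA was biotinylated and pulled down in 48 libraries, and total kidney RNA of control mice was sequenced in 21. The total RNA libraries comprise 8 male and 8 female ones at 5.5 months and 3 male and 2 female ones at 3 months. At 5.5 months of age the Hoxb7Cre pulldowns comprise 4 male and 4 female controls, 4 male and 3 female libraries taken 24 hours after 10 minutes of clamping both renal arteries (ischemia), and 3 male and 4 female libraries after 72 hours without water and food (volume depletion). The Atp6v1b1Cre pulldowns at that age comprise 4 and 4 controls, 3 and 3 after ischemia, and 4 and 3 after volume depletion. A further 2 Hoxb7Cre control pulldowns, both female, and 3 Atp6v1b1Cre control pulldowns, all male, came from mice of 3 months. Both drivers are Cre lines with background labelling where Cre is absent, so a pulldown is enriched for, and not limited to, the named cells. Nothing in the sample descriptions says that each library came from its own mouse, so p-values measure the spread between these libraries.

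AU-rich elements (AREs) are runs of AUUUA in the 3′UTR of short-lived mRNAs such as those of cytokines and immediate early genes. Zfp36 (tristetraprolin) and its relatives Zfp36l1 and Zfp36l2 bind UAUUUAU with zinc fingers and bring in the CCR4-NOT deadenylase, and Khsrp and Hnrnpd (AUF1) also promote decay. Elavl1 (HuR) binds similar elements and mostly stabilizes them, while Rc3h1 (roquin) and the endonuclease Zc3h12a (regnase-1) act on stem-loops in 3′UTRs of inflammatory transcripts. In the kidney these elements lie in transcripts of injury responses, among them Fos, Cxcl1 and Lif.

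Several of these mRNAs carry the element that they regulate. In the GENCODE M21 annotation of GRCm38, AUUUA occurs 3 times in the 774-base 3′UTR of Zfp36, 9 times in the 1835 bases of Zfp36l1, 5 times in the 1822 bases of Zfp36l2 and 17 times in the 4218 bases of Elavl1. The longer UAUUUAU, whose count is part of the first, occurs 3, 3, 3 and 8 times in them. The 3′UTR of Zc3h12a (856 bases) holds 3 AUUUA and no UAUUUAU, that of Rc3h1 (7181 bases) 20 and 2, that of Hnrnpd (5429 bases) 10 and 0, and that of Khsrp (1642 bases) 1 and 0. Among 19351 genes, 66.6% had at least 1 AUUUA and 28.4% at least 1 UAUUUAU in the 3′UTR, with a median of 1.28 AUUUA per kb. The density was 3.88 per kb in Zfp36, 4.90 in Zfp36l1, 2.74 in Zfp36l2, 4.03 in Elavl1, 3.50 in Zc3h12a, 2.79 in Rc3h1, 1.84 in Hnrnpd and 0.609 in Khsrp. A stretch of 30 bases of the 3′UTR with as many of the pentamers as any other of that length was taken for each gene. It held 2 pentamers in Rc3h1 and 1 in Hnrnpd, which were not called higher after volume depletion and are not shown. Those shown are of the 5 genes whose level was higher in male Hoxb7Cre pulldowns after volume depletion and of Khsrp, whose was not, in the sense of the mRNA with ATTTA in capitals:
Zfp36 (chr7:28376958-28376987, minus strand): cctttATTTAtgacgactttATTTAttgta
Zfp36l1 (chr12:80108431-80108460, minus strand): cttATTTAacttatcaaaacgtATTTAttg
Zfp36l2 (chr17:84184918-84184947, minus strand): gaaaaactATTTAacttATTTAttatcttg
Elavl1 (chr8:4285776-4285805, minus strand): tATTTATTTATTTATTTAtttttATTTAtt
Zc3h12a (chr4:125119045-125119074, minus strand): tgtatctctgtcATTTAaggagacgctgcc
Khsrp (chr17:57021585-57021614, minus strand): aaaatagcaagaATTTAacctctgccccgc
A match of letters is a description and shows no binding.

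The libraries held 12618062 to 30305464 counts, and the 22 male pulldowns of the main injury comparison held 14237156 to 29051810. Levels are given as CPM, the count of a gene divided by the TMM-normalized size of its library and brought to one common scale. By the library numbers in the sample descriptions the libraries fall into 3 number series, A (1 to 40, 36 libraries), B (65 to 85, 21 libraries) and C (98 and above, 12 libraries), which is a grouping made here and not a named batch. The series matters for these genes: all injured Hoxb7Cre libraries are in A, while their controls are spread over A, B and C, and controls of A read lower for Zfp36 than those of B and C. Of the 4 female Hoxb7Cre volume-depletion libraries, 3 (replicates 1 to 3) stood apart from the 1 other female and the 3 males, with low levels of Zfp36. Collecting duct markers were present in the pulldowns, with principal cell markers (7 genes) summing to 2779 to 3615 CPM in male Hoxb7Cre controls and intercalated cell markers (7 genes) to 1135 to 1548 CPM in male Atp6v1b1Cre controls, against 781 to 1387 and 402 to 691 CPM in total RNA. In female Hoxb7Cre controls the principal cell sum was 1134 to 2566 CPM, which overlapped total RNA. Proximal tubule markers still summed to 3533 to 4639 CPM in male Hoxb7Cre controls, against 18410 to 72026 CPM in total RNA. The sex labels were met by every library. The 5′ end of the Elavl1 locus (chr8:4325210-4325413) overlaps Ccl25 on the other strand, so reads there are uncertain. Opposite-strand genes that are not in the count table overlap Zfp36 (chr7:28378980-28380253), Zfp36l1 (chr12:80108034-80113000), Zfp36l2 (chr17:84185756-84187947), Khsrp and Hnrnpd. Whether the libraries were stranded is not given, and the part of these genes in the counts was not tested.

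Zfp36 had the widest range of the 8 genes. In male Hoxb7Cre controls its level was 22.7 and 26.4 CPM in the 2 libraries of series A and 67.2 and 68.1 CPM in those of B. After ischemia the 4 male libraries read 42.7, 42.8, 46.2 and 55.7 CPM, and after volume depletion the 3 male libraries read 516, 550.1 and 652 CPM. Every volume-depleted male library was thus above every control and every ischemic one, and the ischemic libraries lay between the 2 pairs of controls. The log2 fold change was 3.64 (SE 0.40) for volume depletion, and 4.56 when only libraries of series A were fitted. For ischemia it was 0.03 (SE 0.35, 95% interval −0.71 to 0.77, adjusted p = 1 from the quasi-likelihood test of edgeR, Benjamini-Hochberg adjusted over all genes tested, as are all adjusted p here unless another tool is named), and 0.93 (adjusted p = 0.0212) within series A. Its ischemic value thus differed with the controls used.

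In male Atp6v1b1Cre pulldowns Zfp36 was at 26.1, 38.7, 63.1 and 88.7 CPM in controls, at 24.8, 27.9 and 42.7 CPM after ischemia and at 149.8, 208, 298 and 338 CPM after volume depletion. Volume-depleted libraries again lay above all controls, with a log2 fold change of 2.21 (SE 0.36), and 2.12 within series A and 2.43 within B as differences of mean log2 CPM. Ischemic libraries overlapped the controls at the low end (log2 fold change −0.78, SE 0.38, adjusted p = 0.221). The female Atp6v1b1Cre libraries read 27.7 to 91.5 CPM in controls, 18.0 to 45.4 CPM after ischemia and 403, 581 and 1005 CPM after volume depletion, the last being the highest value of the 69 libraries.

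Zfp36 in female Hoxb7Cre pulldowns did not follow that order against all controls, but did against the 1 control of series A, the series of the injured libraries. Female controls read 40.6 CPM in series A, 119 CPM in B, and 135 and 205 CPM in C. After volume depletion replicates 1, 2 and 3 read 57.2, 189 and 65.8 CPM and replicate 5 read 722 CPM. Of these, 3 of 4 lay within the range of the controls, replicates 1 and 3 below those of B and C and replicate 2 among them. All 4 lay above the 1 control of series A. As a difference of mean log2 CPM to that 1 control, volume depletion was at 1.89 and ischemia at −0.84. After ischemia all 3 female libraries, at 19.7, 23.1 and 25.5 CPM, were below all 4 female controls. The female log2 fold change for volume depletion was 1.05, against 2.26 with both sexes in one fit.

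**Figure D1:**
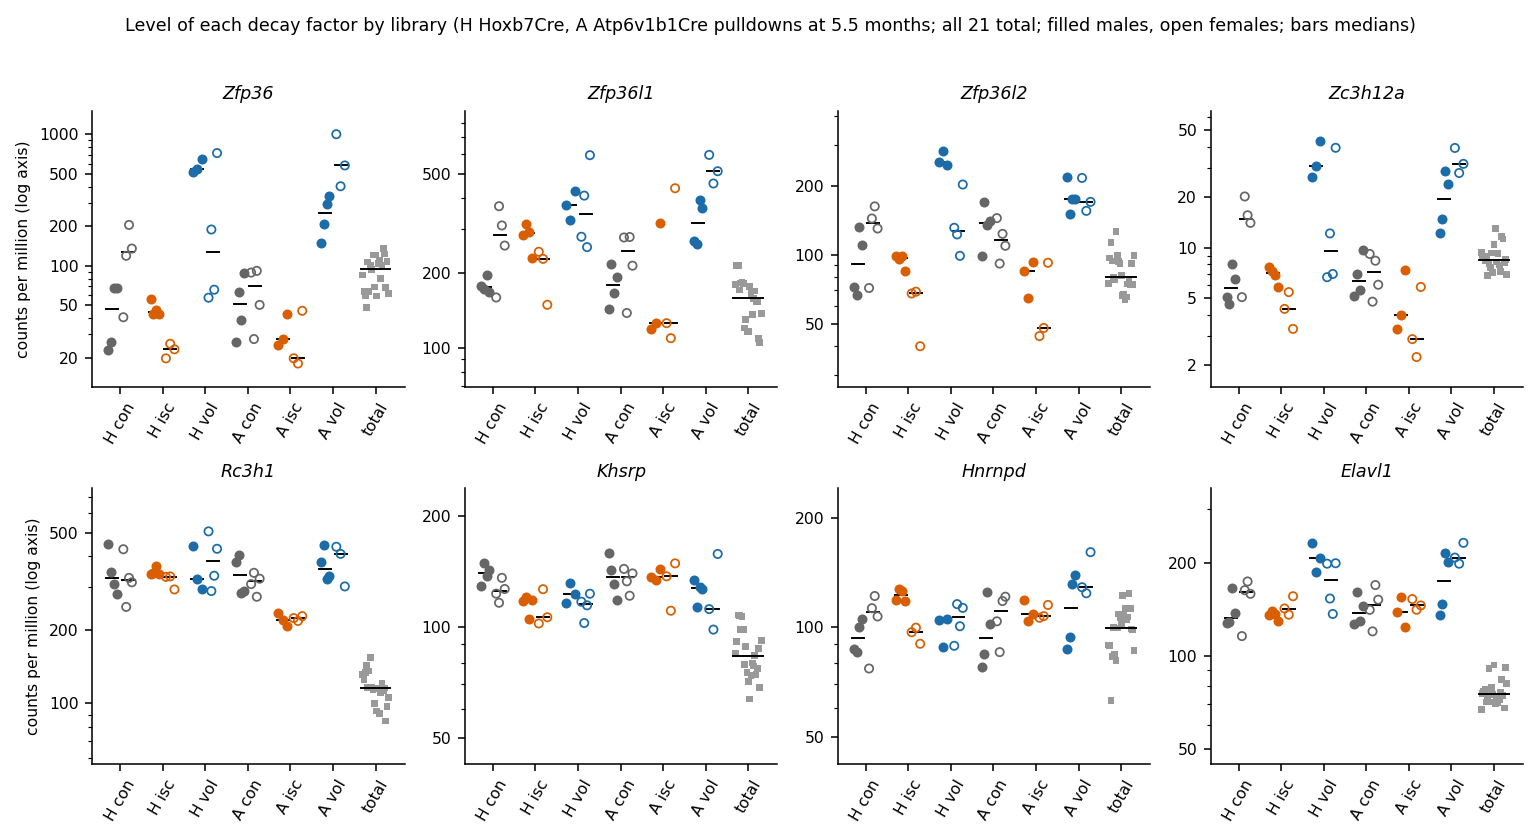
Level in CPM on a log axis for each of the 8 genes, with one point for each pulldown library of mice of 5.5 months (H, Hoxb7Cre; A, Atp6v1b1Cre; con, control; isc, ischemia; vol, volume depletion; filled, males; open, females) and for each of the 21 total kidney RNA libraries (squares), and bars at medians. Male Hoxb7Cre volume-depletion libraries lie at 516 to 652 CPM for Zfp36 against 22.7 to 68.1 CPM in male controls, while Rc3h1 and Elavl1 lie lowest in total RNA.

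Both relatives of Zfp36 rose with volume depletion in male Hoxb7Cre pulldowns, by 1.08 and 1.45 on the log2 scale. Zfp36l1, which like Zfp36 recruits the deadenylase, was at 167, 173, 177 and 195 CPM in male Hoxb7Cre controls, at 229, 283, 293 and 313 CPM after ischemia and at 327, 373 and 427 CPM after volume depletion. Neither injured group overlapped the controls. The rise after volume depletion passed the test (log2 fold change 1.08, SE 0.24, adjusted p = 0.00133) and the difference after ischemia did not (0.66, SE 0.23, adjusted p = 0.0882). The second was within reach of the threshold, with an adjusted p of 0.0489 by DESeq2 and 0.00510 in a fit with the number series as a covariate (log2 fold change 0.87).

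Zfp36l2, the third member of that family, was at 67.04 and 72.3 CPM in male Hoxb7Cre controls of series A and at 110.4 and 132 CPM in those of B. Its level was 85.2, 95.6, 98.5 and 98.5 CPM after ischemia and 246, 253 and 281 CPM after volume depletion. The volume-depleted libraries did not overlap the others and the ischemic ones fell between the 2 pairs of controls. Zfp36l2 rose with volume depletion (log2 fold change 1.45, SE 0.20, adjusted p = 9.02e-06) and was at −0.00 after ischemia (95% interval −0.40 to 0.39).

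In male Atp6v1b1Cre pulldowns Zfp36l1 rose with volume depletion and Zfp36l2 fell after ischemia. Zfp36l1 was at 143, 165, 193 and 216 CPM in controls and at 261, 268, 363 and 393 CPM after volume depletion, with no overlap (log2 fold change 0.86, SE 0.23, adjusted p = 0.0150, and 0.59 and 1.08 as differences within series A and B). That call was lost without control replicate 6 or without volume-depletion replicate 6, where the highest adjusted p was 0.0623. After ischemia 2 libraries read 119 and 126 CPM, below all controls, and replicate 5, of series B, read 315 CPM, above them, so the fold change of 0.06 averaged over opposite directions. The female ischemic libraries divided in the same way, with 109.1 and 125 CPM in series A and 437 CPM in replicate 6 of series B.

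Zfp36l2 in these pulldowns was at 98.99, 134, 139.9 and 169 CPM in controls, at 64.7, 85.01 and 93.0 CPM after ischemia and at 151, 175, 175 and 218 CPM after volume depletion. All ischemic libraries lay below all controls, and Zfp36l2 fell after ischemia (log2 fold change −0.75, SE 0.21, adjusted p = 0.0251). After volume depletion the ranges overlapped (log2 fold change 0.42, SE 0.19, adjusted p = 0.134). The response of Zfp36l2 to volume depletion was smaller in Atp6v1b1Cre than in Hoxb7Cre pulldowns by 1.03 on the log2 scale (SE 0.27, adjusted p = 0.0332), and it was the 1 of 7 members called for a difference between the drivers, among 4.20% of all genes tested. This call was lost in 7 of 15 fits that left out 1 library (Hoxb7Cre control 2 or 3, Hoxb7Cre volume depletion 6 or 7, Atp6v1b1Cre control 9 or 11, or Atp6v1b1Cre volume depletion 2), and in the fit of both sexes the difference was −0.22. Zfp36 itself differed by −1.43 between the drivers in the males, and by 0.57 in the fit of both sexes.

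Zc3h12a, which cleaves stem-loop mRNAs such as that of Il6, moved most like Zfp36. Its level in male Hoxb7Cre pulldowns was 4.65, 5.10, 6.51 and 8.05 CPM in controls, 5.81, 6.88, 7.27 and 7.67 CPM after ischemia and 26.4, 30.8 and 43.4 CPM after volume depletion. The volume-depleted libraries stood clear of the rest, and the ischemic ones lay within the range of the controls. Zc3h12a rose with volume depletion by 2.47 on the log2 scale (SE 0.30, adjusted p = 2.21e-06), and by 2.73 as a difference within series A. In male Atp6v1b1Cre pulldowns it was at 5.15, 5.64, 7.02 and 9.71 CPM in controls, 3.30, 3.98 and 7.39 CPM after ischemia and 12.3, 14.8, 24.1 and 28.8 CPM after volume depletion. It rose there by 1.54 (SE 0.28, adjusted p = 0.00113), in both number series, and the ischemic difference of −0.50 (SE 0.31) did not pass the test.

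Rc3h1, which binds the same stem-loops without cutting them, was unlike Zc3h12a in these pulldowns. Male Hoxb7Cre libraries read 279.8, 307, 345 and 448 CPM in controls, 339, 340.2, 343 and 367 CPM after ischemia and 294, 324 and 440.2 CPM after volume depletion, all within one range. The log2 fold changes were 0.02 (95% interval −0.31 to 0.35) and 0.04 (−0.32 to 0.39). In male Atp6v1b1Cre pulldowns Rc3h1 was at 285, 289, 381 and 404 CPM in controls and at 208, 221 and 234 CPM after ischemia, where it fell (log2 fold change −0.63, SE 0.17, adjusted p = 0.0240). Female Atp6v1b1Cre controls read 273, 308, 324 and 343 CPM and female ischemic libraries 218, 224 and 228 CPM, so that all 6 ischemic libraries lay below all 8 controls of the same age, within series A and within B. In the fit of both sexes the fall was −0.56 (SE 0.13, adjusted p = 0.00165). After volume depletion Rc3h1 was at 323, 334, 379 and 445 CPM in the males, overlapping the controls, with the highest library above all 4 (log2 fold change 0.14, 95% interval −0.19 to 0.47).

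The remaining decay-promoting factors passed the test in no injury comparison of the males. Khsrp, a KH-domain protein that recruits decay enzymes, was at 129, 137, 142 and 149 CPM in male Hoxb7Cre controls, 105.2, 117, 118 and 121 CPM after ischemia and 116, 122 and 131 CPM after volume depletion. The ischemic libraries were all below the controls but the log2 fold change of −0.26 (SE 0.10) had an adjusted p of 0.126, and of 0.0270 by DESeq2. For volume depletion the interval was −0.40 to 0.05. In male Atp6v1b1Cre pulldowns Khsrp lay between 113 and 158 CPM in all 3 groups.

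Hnrnpd (AUF1) was at 85.8, 87.1, 100.1 and 105.6 CPM in male Hoxb7Cre controls, 118, 119, 126 and 128 CPM after ischemia and 88.2, 104.9 and 105.9 CPM after volume depletion. Here the ischemic libraries were the high ones, above all controls (log2 fold change 0.39, SE 0.15, adjusted p = 0.134, and 0.58 with adjusted p = 0.00161 in the fit with the number series as a covariate). The volume-depleted libraries overlapped the controls (0.08, 95% interval −0.27 to 0.42). In male Atp6v1b1Cre pulldowns the values followed the number series, with controls at 77.8 and 84.3 CPM in A and 102.4 and 125 CPM in B, and volume-depleted libraries at 87.0 and 94.0 CPM in A and 132 and 139 CPM in B.

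Elavl1, the stabilizing member, was at 128, 129, 138 and 166 CPM in male Hoxb7Cre controls, 130.0, 135, 137 and 140.2 CPM after ischemia and 187, 208 and 232 CPM after volume depletion. It rose with volume depletion (log2 fold change 0.59, SE 0.15, adjusted p = 0.00310) and its ischemic libraries lay inside the range of the controls. In male Atp6v1b1Cre pulldowns volume-depleted libraries divided by series, with 135 and 147 CPM in A and 202 and 215 CPM in B, against controls of 127 to 161 CPM. The pooled difference was 0.33 (SE 0.14, adjusted p = 0.113), being −0.02 within A and 0.60 within B.

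**Figure D2:**
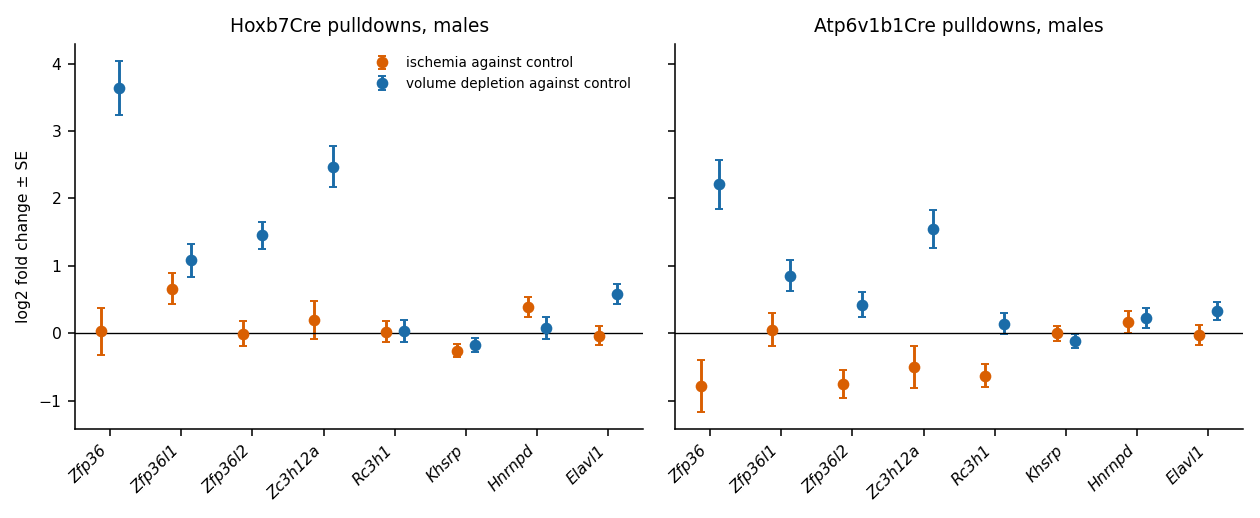
Log2 fold change against control (points) with its standard error (bars) for each of the 8 genes in male pulldowns of mice of 5.5 months, after ischemia (orange) and volume depletion (blue), for Hoxb7Cre on the left and Atp6v1b1Cre on the right. Zfp36 reaches 3.64 and Zc3h12a 2.47 after volume depletion in Hoxb7Cre, while Rc3h1 and Zfp36l2 lie at −0.63 and −0.75 after ischemia in Atp6v1b1Cre.

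Counted over the male pulldowns, volume depletion raised 4 of the 7 members other than Zfp36 in Hoxb7Cre (Zfp36l1, Zfp36l2, Elavl1 and Zc3h12a) and lowered none, where 17.9% of all genes tested were called higher and 17.6% lower. The 4 calls were kept in each fit that left out 1 library. In Atp6v1b1Cre 2 of 7 rose (Zfp36l1 and Zc3h12a) and none fell, with 8.11% and 6.47% of all genes called. Ischemia in Hoxb7Cre called 0 of 8 by edgeR, where 3.34% of genes were called higher and 2.79% lower (2273 and 2091 genes at an unadjusted p under 0.05), and 2 of 8 by DESeq2. In Atp6v1b1Cre 2 of 8 fell after ischemia (Zfp36l2 and Rc3h1) and none rose, with 3.77% of genes called higher and 4.74% lower. Both calls were lost without ischemic replicate 1 or 4 or control replicate 9, and 1 of them without ischemic replicate 5 or control replicate 6 or 11. The difference between drivers in the response to ischemia was called for 0 of 8 members (7.79% of all genes), Rc3h1 being at −0.65 (adjusted p = 0.0804) and Zfp36l2 at −0.75 (adjusted p = 0.0963). DESeq2 called 1 of 8, and the fit with the number series called 4 (Zfp36, Zfp36l2, Rc3h1 and Zc3h12a).

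Set directly against ischemia, volume depletion gave higher levels of 3 of 7 members in male Hoxb7Cre pulldowns, with 16.4% of all genes called higher and 16.9% lower. These were Zfp36l2 (log2 difference 1.45, SE 0.20, adjusted p = 1.04e-05), Zc3h12a (2.27, SE 0.30, adjusted p = 6.26e-06) and Elavl1 (0.62, SE 0.15, adjusted p = 0.00221), while Zfp36l1 was at 0.42 (95% interval −0.10 to 0.94). In Atp6v1b1Cre 4 of 7 were higher, with 15.0% and 14.3% of all genes called higher and lower: Zc3h12a (2.05, adjusted p = 7.22e-05), Zfp36l2 (1.17, adjusted p = 2.35e-04), Zfp36l1 (0.80, adjusted p = 0.0186) and Rc3h1 (0.77, adjusted p = 0.00166). The call of Zfp36l1 was lost without ischemic replicate 1 or 4 or volume-depletion replicate 6 (highest adjusted p = 0.141). Zfp36 differed by 3.60 and 2.98 on the log2 scale in the respective drivers.

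Markers of other cells moved with these groups. In male Hoxb7Cre pulldowns the 7 principal cell markers summed to 1163 to 1252 CPM after volume depletion and 1062 to 1302.5 CPM after ischemia, below the controls, and all 7 fell with volume depletion. Both injured groups lay within the range of total RNA (781 to 1387 CPM). The 8 macrophage markers summed to 55.9 to 71.2 CPM in controls, 69.6 to 79.3 CPM after ischemia and 79.1 to 103.1 CPM after volume depletion, where 5 of 8 rose and 2 fell. The 5 neutrophil markers found summed to 0.328 to 1.22 CPM in controls and 1.31 to 3.07 CPM after ischemia, where 2 of 5 rose, and to 0.535 to 0.654 CPM after volume depletion. Endothelial markers (5 genes) summed to 89.8 to 170 CPM in controls, 164 to 204 CPM after ischemia and 188 to 245 CPM after volume depletion. Thick ascending limb markers summed to 791 to 884 CPM after volume depletion against 1375 to 2374 CPM in controls (3 of 4 fell), and 5 of 6 fat markers fell after ischemia (48.9 to 95.3 CPM against 111 to 246 CPM). In Atp6v1b1Cre males intercalated cell markers summed to 696 to 1107 CPM after volume depletion, below the controls (3 of 7 fell), and thick ascending limb markers to 893 to 1034 CPM against 1013 to 2033 CPM (2 of 4 fell). Proximal tubule markers summed to 1627 to 2062 CPM after ischemia in this driver, where Zfp36l2 and Rc3h1 fell, against 3750 to 4755 CPM in controls (3 of 6 fell). The macrophage sum there was 138 to 174 CPM in controls, 142 to 230.0 CPM after ischemia and 91.1 to 175 CPM after volume depletion. Their part in the levels of the 8 genes was not tested, and in pulldowns fewer labelled cells of a type and less new RNA per cell cannot be told apart.

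In female Hoxb7Cre pulldowns at least 2 of the 4 volume-depleted libraries fell within the range of the controls for each of the 8 genes, while in female Atp6v1b1Cre pulldowns all 3 lay above the controls for Zfp36, Zfp36l1, Zfp36l2, Zc3h12a, Elavl1 and Hnrnpd. The share of all genes with groups so separated was not counted, so this describes the members only. Zc3h12a in the Hoxb7Cre females read 5.09, 14.1, 15.6 and 20.2 CPM in controls, 3.30, 4.33 and 5.45 CPM after ischemia and 6.69, 6.99, 12.2 and 39.4 CPM after volume depletion. The highest of these was replicate 5, also the highest for Zfp36, and the other 3 overlapped the controls of all series. The 1 control of series A, the series of these injured libraries, read 5.09 CPM, below all 4. As differences of mean log2 CPM to that 1 control, volume depletion was at 1.25 for Zc3h12a, 1.19 for Zfp36l1 and 0.90 for Zfp36l2. It was at 0.55 for Elavl1, 0.43 for Hnrnpd, −0.17 for Rc3h1 and −0.11 for Khsrp. Zfp36l2 read 71.6, 130.0, 144 and 162 CPM in female controls, 39.9, 67.7 and 68.99 CPM after ischemia and 98.8, 123, 131 and 202 CPM after volume depletion. In a fit of females alone none of the 7 members was called for volume depletion in Hoxb7Cre. In female Atp6v1b1Cre pulldowns Zfp36l1 (log2 fold change 1.20, adjusted p = 0.0399), Zc3h12a (2.22, adjusted p = 0.00710) and Elavl1 (0.55, adjusted p = 0.0263) rose with volume depletion.

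The difference between the sexes (female minus male) was tested in the 43 pulldowns of 5.5 months. For volume depletion in Hoxb7Cre it was −2.23 for Zc3h12a (SE 0.59, adjusted p = 0.0115) and −1.33 for Zfp36l2 (SE 0.36, adjusted p = 0.0120), 2 of 7 members called among 16.0% of all genes. Zfp36 differed by −2.60. For ischemia in Hoxb7Cre 3 of 8 were called among 10.5% of all genes, with Zfp36 at −2.50 (SE 0.81, adjusted p = 0.0410), Zc3h12a at −1.87 (SE 0.62, adjusted p = 0.0468) and Zfp36l2 at −1.12 (SE 0.36, adjusted p = 0.0412). Only 1 female Hoxb7Cre control is in series A, and with series A alone both counts were 0. Leaving out female volume-depletion replicate 5 made the volume differences larger, at −3.15 for Zc3h12a and −1.57 for Zfp36l2. In Atp6v1b1Cre edgeR called 0% of all genes for either injury, with 676 genes for ischemia and 1756 for volume depletion at an unadjusted p under 0.05, and 1 and 44 genes by DESeq2, and no member was among the edgeR calls.

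In control kidneys 5 of the 8 genes were higher in the labelled RNA of Hoxb7Cre pulldowns than in total RNA and none lower, in a comparison where 66.6% of all genes were called in either direction, a like share. Rc3h1 was at 248 to 448 CPM in the 10 Hoxb7Cre pulldowns (median 310.2) and at 84.8 to 154 CPM in the 21 total RNA libraries (median 115), with no overlap. It was the highest above total RNA of the 8 (log2 difference 1.52, SE 0.09, adjusted p = 1.06e-20). Elavl1 was at 116 to 174 CPM against 67.2 to 93.6 CPM (0.96, SE 0.06, adjusted p = 1.91e-18) and Khsrp at 116 to 149 CPM against 63.7 to 107.7 CPM (0.69, SE 0.06, adjusted p = 5.25e-13), also without overlap. Zfp36l1 (0.52, SE 0.12, adjusted p = 2.07e-04) and Zfp36l2 (0.42, SE 0.12, adjusted p = 0.00268) were higher too, but with series A alone these were −0.09 and −0.36. Zfp36, at a median of 67.7 CPM (22.7 to 205) against 93.9 CPM (48.2 to 135), was not called (−0.17, 95% interval −0.70 to 0.36), nor were Zc3h12a (0.10) and Hnrnpd (0.06). Of all genes 35.6% were higher and 31.1% lower.

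The 11 Atp6v1b1Cre control pulldowns gave the same 5 genes, with 34.4% of all genes higher and 29.4% lower than in total RNA (63.8% in either direction). Rc3h1 differed by 1.48 (adjusted p = 1.15e-20), Elavl1 by 0.97 (adjusted p = 3.33e-19), Khsrp by 0.72 (adjusted p = 4.26e-14), Zfp36l2 by 0.62 (adjusted p = 7.46e-06) and Zfp36l1 by 0.48 (adjusted p = 3.62e-04) on the log2 scale. Zfp36 (−0.33), Zc3h12a (−0.10) and Hnrnpd (0.13) did not pass the test. Both comparisons use the same total RNA libraries. Library for library these match the control pulldowns in driver, sex, age and order of library numbers. Each may thus come from a mouse that also gave a pulldown, which the labels do not say. The fit takes all of them as independent and ignores such a pairing. Between the 2 drivers 0 of 8 members differed in controls, where 9.93% of all genes did. The intervals of the difference ran from −0.24 to 0.17 for Rc3h1, −0.13 to 0.16 for Elavl1, −0.12 to 0.19 for Khsrp and −0.77 to 0.44 for Zfp36.

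**Figure D3:**
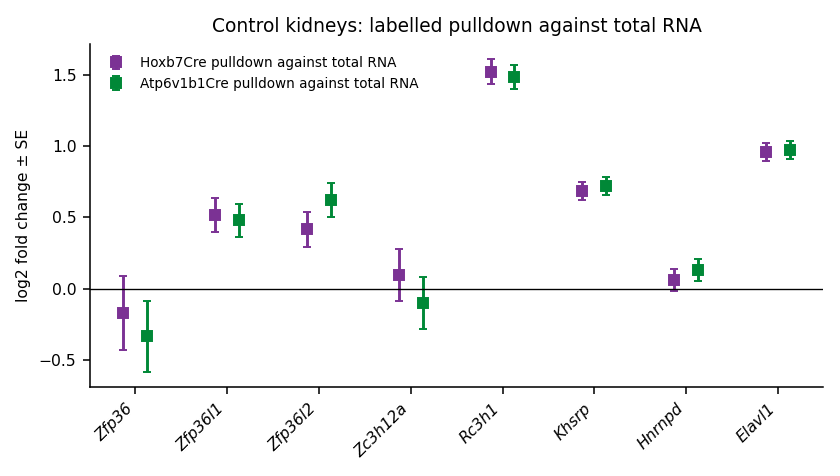
Log2 difference between control pulldown and total kidney RNA (squares) with its standard error (bars) for each of the 8 genes, for Hoxb7Cre (purple) and Atp6v1b1Cre (green). Rc3h1 lies at 1.52 and 1.48, Elavl1 at 0.96 and 0.97, and Zfp36 at −0.17 and −0.33.

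Per kb of exon, the order of the levels in male Hoxb7Cre controls was Zfp36l1 (median 58.4 RPKM, counts per kb of exon divided by the library size as for CPM), Khsrp (32.4 RPKM), Rc3h1 (28.9 RPKM), Zfp36l2 (25.9 RPKM), Zfp36 (13.5 RPKM), Elavl1 (12.8 RPKM), Hnrnpd (12.7 RPKM) and Zc3h12a (2.01 RPKM). The ranges of Khsrp, Rc3h1 and Zfp36l2 overlapped, as did those of Zfp36, Elavl1 and Hnrnpd. The annotated exons of Zfp36 span the whole of its locus (chr7:28376784-28380253), which lowers its value per kb. After volume depletion Zfp36 had the highest median of the 8 (159 RPKM, from 149 to 188), followed by Zfp36l1 (125 RPKM, from 109.3 to 143), and these ranges did not overlap.

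The genes whose pattern over the 48 pulldowns was most like that of Zfp36, among 15129 genes with a mean of at least 10 counts, were Per1 (Pearson r of log2 CPM 0.984), Dusp1 (0.983), Jun (0.98), Zc3h12a (0.973) and Mafk (0.973). Per1 is a clock component, Dusp1 a phosphatase of the MAP kinases, and Jun and Mafk are bZIP transcription factors. The libraries share drivers, treatments and number series, so these values describe the pattern and carry no p. Dusp1 was at 53.1 to 156 CPM in male Hoxb7Cre controls, 64.3 to 96.5 CPM after ischemia and 861 to 1197 CPM after volume depletion, and Per1 was at 106.3 to 237, 168 to 190.1 and 1047 to 1253 CPM. Within series A, B and C the r of Zc3h12a with Zfp36 was 0.980 (29 libraries), 0.946 (13) and 0.977 (6). Among the other members r with Zfp36 over all 48 was 0.870 for Zfp36l2, 0.820 for Zfp36l1, 0.794 for Elavl1, 0.393 for Hnrnpd, 0.327 for Rc3h1 and −0.170 for Khsrp. These varied more by series. In A, B and C they were 0.889, 0.770 and 0.923 for Zfp36l2, 0.861, 0.627 and 0.971 for Zfp36l1, and 0.77, 0.938 and 0.889 for Elavl1. For Hnrnpd they were 0.289, 0.784 and 0.292, for Rc3h1 0.403, 0.637 and 0.377, and for Khsrp −0.251, 0.0245 and −0.827.

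**Figure D4:**
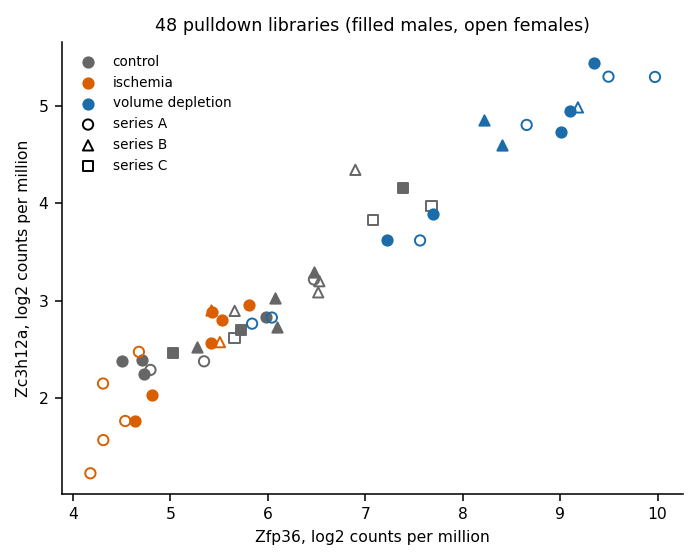
Level of Zfp36 (horizontal) against Zc3h12a (vertical), both in log2 CPM, in the 48 pulldown libraries of both ages (grey, control; orange, ischemia; blue, volume depletion; circles, triangles and squares, number series A, B and C; filled, males; open, females). The points form a single band (r = 0.973 over 48 libraries), and 3 of the 4 female Hoxb7Cre volume-depletion libraries lie among the controls.

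The starts of these genes hold different motifs. RefSeq promoters (250 bases before each start on GRCm38.p6) were found for 7 of the 8 members, and 9 motifs were searched on both strands. In the Zfp36 promoter a GC box (GGGCGG, in 32.7% of 32851 promoters) shares 1 base with a CArG box (1.47%), the element bound by serum response factor, and both are in capitals here over the bases from −70 to −41 of the start (chr7:28379269-28379298, minus strand):
Zfp36: ccccaggCCGCCCCATAAAAGGagaaagct
The same promoter held a STAT motif (TTCNNNGAA, 7.02% of promoters) and an EGR motif (GCGGGGGCG, 2.57%), and its RefSeq start lies inside the 5′UTR of a longer GENCODE transcript. That of Zc3h12a, the member most like Zfp36 in pattern, held 5 GC boxes, in capitals, and none of the other 8 motifs (chr4:125127882-125128131, minus strand):
Zc3h12a: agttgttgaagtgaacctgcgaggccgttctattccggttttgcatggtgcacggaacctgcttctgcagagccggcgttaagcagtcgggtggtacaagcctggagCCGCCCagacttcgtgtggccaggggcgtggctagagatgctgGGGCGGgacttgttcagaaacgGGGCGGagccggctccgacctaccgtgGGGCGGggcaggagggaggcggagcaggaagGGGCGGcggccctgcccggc
Zfp36l1 held an AP-1 motif (TGANTCA, 6.75%), and Rc3h1 an AP-1 motif with 5 GC boxes. Hnrnpd held 3 GC boxes with an E box (CACGTG, 6.02%), Khsrp 2 copies of the cyclic AMP response core (TGACG, 17.8%) with a GC box, and Elavl1 none of the 9. The motifs not found in any of the 7 were FoxO (GTAAACA, 3.17%) and NF-kappaB (7.25%).

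Most of the listed ARE transcripts rose with volume depletion. Of 35 such transcripts, 27 rose and 2 fell with volume depletion in male Hoxb7Cre pulldowns (median log2 fold change 2.20, against 0 over all genes), and 22 rose and 1 fell in Atp6v1b1Cre (median 1.59). As shares these are 77.1% and 62.9% higher, where 17.9% and 8.11% of all genes were higher. This list and those below were chosen with earlier results of these data known. The list of ARE transcripts also holds Dusp1 and Jun, which were among the genes most like Zfp36. The shares are therefore a description and not a test. Cxcl2 (5.00) and Cxcl1 (4.78), both neutrophil chemokines, and Fos (3.71) had the largest changes in Hoxb7Cre, and Cxcl1 (3.07), Fos (2.91) and Areg (2.90), an EGF receptor ligand, in Atp6v1b1Cre. After ischemia 3 of the 35 rose in each driver, and 1 fell in Atp6v1b1Cre, where 3.34% and 3.77% of all genes rose. They included the cytokine Lif (2.91) in Hoxb7Cre, and the chemokine Ccl2 (1.73) and the receptor gene Plaur (1.20) in Atp6v1b1Cre. Fos, whose mRNA is a textbook ARE target, was at 3.41 to 17.9 CPM in male Hoxb7Cre controls, 6.78 to 10.5 CPM after ischemia and 94.8 to 142 CPM after volume depletion. Against total RNA 14 of the 35 were higher and 2 lower in Hoxb7Cre control pulldowns (40% and 5.71%, against 35.6% and 31.1% of all genes), led by Fos (1.60), Egr1 (1.52) and Hif1a (1.45). The share that was higher was thus near that of all genes. In Atp6v1b1Cre 11 of the 35 were higher and 4 lower, led by Hif1a (1.41), Cxcl2 (0.89) and Nfkbiz (0.88), where 34.4% of all genes were higher and 29.4% lower.

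Of 41 tested genes of the decay machinery, 10 rose and 8 fell with volume depletion in Hoxb7Cre (median 0.08), and 6 rose and none fell in Atp6v1b1Cre (median 0.09). In Hoxb7Cre 24.4% were higher and 19.5% lower, against 17.9% and 17.6% of all genes, and in Atp6v1b1Cre 14.6% were higher against 8.11% of all genes. The largest changes were of 3 genes that tether CCR4-NOT, Btg2 (3.71), Tob2 (2.85) and Tob1 (2.84), which also led in Atp6v1b1Cre (1.97, 1.17 and 1.76). After ischemia the exosome nuclease Dis3 rose in Hoxb7Cre (0.52), and in Atp6v1b1Cre Exosc8 rose (0.62) while Tob2 (−0.91) and Edc4 (−0.43), of the decapping complex, fell. In controls 27 of the 41 were higher and 9 lower in either pulldown than in total RNA (65.9% and 22%, against 35.6% and 31.1% of all genes in Hoxb7Cre and 34.4% and 29.4% in Atp6v1b1Cre). They included the exonuclease Xrn1 (1.43 in Hoxb7Cre, 1.28 in Atp6v1b1Cre) and Pan3 (1.28 and 1.25), while Exosc5, an exosome subunit, was lower (−1.97 and −2.05).

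Among 21 other ARE-binding proteins, 5 rose and 2 fell with volume depletion in Hoxb7Cre and 2 rose and 1 fell in Atp6v1b1Cre. As shares these are 23.8% higher and 9.52% lower in Hoxb7Cre, against 17.9% and 17.6% of all genes, and 9.52% and 4.76% in Atp6v1b1Cre, against 8.11% and 6.47%. Elavl3, a relative of Elavl1, rose in both (1.76 and 1.83), as did Hnrnpa1 (1.29 and 0.92). Hnrnpdl rose in Hoxb7Cre (0.81), and Zc3h12d, a relative of Zc3h12a, fell in Atp6v1b1Cre (−1.21). With ischemia 1 rose in Hoxb7Cre, Hnrnpa1 (0.74), and 1 fell in Atp6v1b1Cre, Zc3h12c (−1.16). Against total RNA 12 of the 21 were higher and 5 lower in Hoxb7Cre, where 35.6% and 31.1% of all genes were. In Atp6v1b1Cre 13 were higher and 5 lower, where 34.4% and 29.4% of all genes were. Ybx1 (−2.64 and −2.57) and Auh (−1.98 and −2.06) were among the lower ones, and Zc3h12b (1.70 in Hoxb7Cre) and Celf2 (1.46 in Atp6v1b1Cre) among the higher ones.

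The p38 to MK2 pathway phosphorylates Zfp36 and so curbs its decay activity. Of its 12 listed genes, 6 rose and 1 fell with volume depletion in Hoxb7Cre, 50% and 8.33% of the list, against 17.9% and 17.6% of all genes. The largest changes were of the kinases Map2k3 (1.37), Map2k6 (1.17) and Mapk14 (0.91). In Atp6v1b1Cre 2 rose and 1 fell, Mapk11 (0.82) and Mapkapk2 (0.37) against Map2k6 (−0.70), where 8.11% of all genes rose and 6.47% fell. Map2k6 fell after ischemia in both drivers (−0.99 and −1.86), and Mapk11 rose in Atp6v1b1Cre (1.21). In controls 3 of the 12 were higher and 4 lower in Hoxb7Cre pulldowns than in total RNA, where 35.6% of all genes were higher and 31.1% lower. In Atp6v1b1Cre 3 were higher and 5 lower, where 34.4% and 29.4% of all genes were. Mapk13 was lowest (−2.01 and −2.26), followed by Ywhab (−1.01) and Mapk12 (−0.92) in Hoxb7Cre and by Mapk11 (−1.01) and Ywhab (−0.98) in Atp6v1b1Cre.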

How the data were processed

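Mouse kidney RNA of 69 libraries was sequenced after TruSeq RNA preparation. The authors deposited raw read counts per gene symbol, not normalized, made with CASAVA 1.8.2, Trimmomatic 0.36, STAR 2.5.3a on mm10 and HTSeq 0.6.1p2 at default settings, by the paper's methods and the submitters' processing notes. The annotation behind the symbols is not given in the sources used here. Default HTSeq leaves out reads that align to several places, so genes with near-identical copies are undercounted.

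From these counts, the 21175 of 24411 genes with a sum of 2 or more over all libraries were tested, with TMM normalization and edgeR's quasi-likelihood test (edgeR 4.0.16, limma 3.58.1, R 4.3.3) with Benjamini-Hochberg adjustment over all genes tested. A gene was called at an adjusted p under 0.05. Injury was fitted on the 22 male pulldowns of 5.5 months (common dispersion 0.0444), pulldown against total RNA on the 42 controls with sex as a covariate, and the difference between sexes on the 43 pulldowns of 5.5 months. Log2 CPM used a prior count of 2. Groups came from the sample titles. Between-library variation outweighs counting error at these depths, and no 2 libraries of a group were near-identical.

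The alternatives were DESeq2 1.42.0, other filters and normalizations, each library left out, a replicate block, one sex or both, the number series as a covariate, and, chosen after seeing the data, series A alone and the sex difference without 1 library. The members and gene lists were chosen with earlier results of these data known. All 8 members are named, and of each list the 3 called genes of largest change with a mean of at least 10 counts, for each injury against control and each pulldown against total RNA, except 1 gene that is not reported here. List genes of the other comparisons are not named. The 5 genes most like Zfp36 were ranked by Pearson r over the 48 pulldowns. Fits were tested on simulated data. Sequences were read from RefSeq (GRCm38.p6) and from the GENCODE M21 annotation of GRCm38.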

Additional observations from a re-analysis of the deposited data

Results flagged for a closer look

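Among 72 sets of a gene's values in a group of 4 to 10 libraries, 2 held a library far from the others by Dixon's criterion, where chance gives about 1 in 20 groups. Rc3h1 was at 367 CPM in ischemia Hoxb7Cre replicate 6, against a median of 342 CPM in the 4 males. Zc3h12a was at 39.4 CPM in female volume-depletion Hoxb7Cre replicate 5, against a median of 9.59 CPM in the 4 females, and that library also had the highest Zfp36 level of its group.

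The response to volume depletion differed between the drivers for Zfp36l2, the Atp6v1b1Cre minus Hoxb7Cre difference of log2 fold changes being −1.03 in the males. In Hoxb7Cre the response to ischemia differed between the sexes (female minus male) for Zfp36 (−2.50), Zfp36l2 (−1.12) and Zc3h12a (−1.87), and the response to volume depletion for Zfp36l2 (−1.33) and Zc3h12a (−2.23). Only 1 of the 4 female controls in those differences is in number series A, which holds all the injured Hoxb7Cre libraries. The female control of series A read 40.6 CPM for Zfp36 and those of B and C 119 to 205 CPM, and the part of the series in the sex differences was not tested beyond the fits given under the processing.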

How the results depend on the processing

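Of 149 recomputed counts of members called under alternatives other than leaving out 1 library, 120 stayed within 1.5 times the reported count, and of 676 recomputed values of single members 555 kept their direction and their side of the threshold. For Hoxb7Cre ischemia the count of 0 became 2 with DESeq2, 2 with the number series as a covariate and 3 with series A alone. For Hoxb7Cre volume depletion the 4 became 0 in females, and against ischemia the 3 became 1 in females and 5 in series A. For Atp6v1b1Cre ischemia the 2 became 0 with the replicate block, in females and with a log2 fold change of at least 1, and 5 in series A. For Atp6v1b1Cre volume depletion the 2 became 1 in series A and at that fold, and against ischemia the 4 became 2 at that fold. The driver difference for ischemia went from 0 to 1 with DESeq2 and to 4 with the series covariate and in series A, and that for volume depletion from 1 to 2 with the series covariate, to 3 in series A and to 0 with the replicate block, with both sexes and in females. Against total RNA, Hoxb7Cre went from 5 to 3 in males and both drivers to 1 at that fold, and between drivers the 0 became 1 with the replicate block and in series A. The sex differences in Hoxb7Cre went from 3 to 1 with the series covariate and 0 in series A for ischemia, and from 2 to 0 in series A for volume depletion. The cause of these shifts was not tested.

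Leaving out 1 library at a time gave 0 to 2 calls for Atp6v1b1Cre ischemia, 1 to 3 for Atp6v1b1Cre volume depletion, 3 to 5 for it against ischemia, 0 to 1 for either driver difference and 5 to 6 for Atp6v1b1Cre against total RNA, and changed no other count of members (0, 4 and 3 in the Hoxb7Cre injury comparisons, 5 against total RNA, 0 between drivers in controls). For the sex differences it was run for female volume-depletion Hoxb7Cre replicate 5 alone, where the 2 calls stayed 2.

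Directions turned in these cases, as log2 values. For Hoxb7Cre ischemia, Zfp36 was at −0.32 with the replicate block, −1.15 with both sexes, −2.45 in females and between −0.19 and 0.29 without 1 library, and in females Zfp36l1 was at −0.40 and Hnrnpd at −0.13, while Hnrnpd for volume depletion against ischemia was at 0.12. For Atp6v1b1Cre ischemia, Zfp36l1 was at −0.051 with the 25 males of both ages, −0.040 in females, −0.56 in series A and between −0.54 and 0.30 without 1 library, and Zc3h12a was at 0.24 with the replicate block. Elavl1 in Atp6v1b1Cre volume depletion was at −0.026 in series A, and at −0.046 there against ischemia. The driver difference for ischemia was at 0.75 with the replicate block, 0.16 with both sexes and 1.21 in females for Zfp36, at 0.36 and 0.15 in females for Zfp36l1 and Zfp36l2, and at 0.39, 0.044 and 0.66 in those fits for Zc3h12a. That for volume depletion was at 0.29, 0.57 and 2.31 for Zfp36, at 0.24, 0.068 and 0.39 for Elavl1, at 0.18, 0.62 and 1.97 for Zc3h12a, and at 0.50 in females for Zfp36l2. Against total RNA in Hoxb7Cre, Zfp36 was at 0.21 in females, Zfp36l1 at −0.087 and Zfp36l2 at −0.36 in series A, and Zc3h12a at −0.44 in males, −0.69 in series A and −0.066 without control replicate 6, and Khsrp between drivers was at −0.011 in males.

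On average, libraries of the same replicate number did not deviate together. The mean r was 0.000756 (−0.414 to 0.299) over 20 pairs of the males and 0.0408 (−0.452 to 0.585) over 26 pairs of the controls. Most control pulldowns carry another replicate number than the total RNA library that matches them in driver, sex, age and order. Their pairing was therefore not tested by this check. The replicate block left the other counts within 1.5 times. Depth was 12618062 counts or more, and Zc3h12a, with a mean of 285 counts in the male libraries, had the fewest.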
